A study of Homo sapiens with 2 samples.

Results

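SNARE genes encode the proteins that drive fusion of intracellular membranes, and 33 of them were examined in RKO cells, which are an established line from a human colon carcinoma. The members were the rows of the deposited gene table whose symbols are on a list of VAMP, syntaxin, SNAP, Golgi and ER SNARE genes, and all 33 were found among the 40205 rows. RNA was collected 48 h after transfection of an siRNA against SRSF1, a regulator of pre-mRNA splicing also known as ASF, or of a control siRNA. Each of these 2 groups had 1 library of the same cell line, so no difference has a replicate check, no p-value can be given and an effect of 1 culture cannot be told apart from an effect of the siRNA. Neither the labels nor the files give the siRNA sequences.

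Fusion occurs when a SNARE on a vesicle and SNAREs on its target membrane zip into a bundle of parallel helices. Each bundle takes a helix from each of the classes R, Qa, Qb and Qc, named for the arginine or glutamine that the helix places in the central layer of the bundle, and SNAP proteins of the class Qbc bring both a Qb and a Qc helix. Different bundles serve different steps: exocytosis at the plasma membrane, transport between the ER and the Golgi, return of material to the ER, sorting between endosomes and the trans-Golgi network, fusion with lysosomes, and fusion of autophagosomes. The ATPase NSF, with SNAP adaptors such as alpha-SNAP, takes used bundles apart, and SM proteins guide their assembly.

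VAMP2, STX10 and STX6 are among the members that differed most from the control library. The coding sequence around the central layer is shown for them, and for VAMP3 and VAMP1, close relatives of VAMP2 that differed less. The windows are 60 bases of the coding strand, 5′ to 3′, from GENCODE 29 transcripts on GRCh38, and capitals mark the codon for the central arginine of the R-SNAREs and the central glutamine of the Qc-SNAREs.
VAMP2: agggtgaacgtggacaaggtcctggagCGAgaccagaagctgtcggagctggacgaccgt
VAMP3: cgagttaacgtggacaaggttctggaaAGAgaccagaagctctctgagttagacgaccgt
VAMP1: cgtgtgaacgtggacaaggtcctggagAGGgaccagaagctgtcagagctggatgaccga
STX6: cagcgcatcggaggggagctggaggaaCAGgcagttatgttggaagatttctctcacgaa
STX10: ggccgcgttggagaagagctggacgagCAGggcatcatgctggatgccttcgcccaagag
The VAMP2 window lies at chr17:8161692-8161751 on the minus strand, that of VAMP3 at chr1:7777175-7777234 on the plus strand and that of VAMP1 at chr12:6465926-6465985 on the minus strand, each within a single coding exon. The STX6 and STX10 windows each span an exon junction, in genes on the minus strand at chr1:180972712-181023121 and chr19:13144058-13150383. VAMP2 shares 50 of the 60 bases with VAMP3 and 53 with VAMP1, whereas STX6 and STX10 share 39. The longest run of identical bases between the longest coding transcripts was 17 for VAMP2 and VAMP3, 24 for VAMP2 and VAMP1, and 14 for STX6 and STX10.

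Sequencing gave 61879680 reads with SRSF1 siRNA (75.9% mapped) and 64651910 reads with control siRNA (70.4% mapped). Levels were deposited as FPKM, fragments scaled to the length of the gene model and to the library size. On this scale a comparison between genes depends on the gene length used. SRSF1 was at 32.7 FPKM in the SRSF1 siRNA library, against 103 FPKM in the control library, so the label of the knockdown matches the targeted transcript. Of 10 genes of colon epithelium, EPCAM, KRT8, KRT18 and CDX2 had a mean of at least 1 FPKM, while CDH1, KRT19, KRT20, VIL1 and CDX1 were listed at 0 in both libraries. None of the 4 markers in each list for leukocytes, fibroblasts, endothelium or neurons and neuroendocrine cells reached a mean of 1 FPKM, and the summed level of a list was at most 0.151 FPKM with SRSF1 siRNA and 0.246 FPKM with control siRNA. In such bulk RNA, fewer cells with a transcript and less of it per cell cannot be told apart.

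Of the 33 SNARE genes, 28 had a mean of at least 1 FPKM over both libraries and were compared. Risen and fallen are used here of genes whose log2(FPKM + 1) was higher or lower with SRSF1 siRNA by at least 1.5-fold; a positive difference means a higher value with SRSF1 siRNA. By this rule 1 member rose, VAMP2, where 1.22% of all 11274 genes with a mean of at least 1 FPKM rose, and 2 members fell, STX10 and STX1A, where 4.30% of all genes fell. On this scale no member reached 2-fold, which 0.284% of all genes did upward and 0.435% downward; VAMP2, at 0.94, passed 2-fold under quantile normalization (1.01), with a pseudocount of 0.1 (1.10) and in the plain ratio of counts (1.13). The median difference over the 28 members was -0.01, against -0.06 over all genes. Of the members 14 lay above 0 and 14 below, where 39.7% of all genes lay above 0. The differences of the members had an SD of 0.36 across genes, against 0.29 over all genes. Over all genes the 5th and 95th percentiles of the difference were -0.55 and 0.35. VAMP2, STX6, STX12 and GOSR1 lay above this range and STX10 and STX1A below it. The summed FPKM of all members was 432 with SRSF1 siRNA, against 429 with control siRNA. Under quantile normalization of the columns 2 members rose, VAMP2 and STX6, and 1 fell, STX10, where 214 of all genes rose and 327 fell, against 138 and 485 as deposited.

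**Figure D1:**
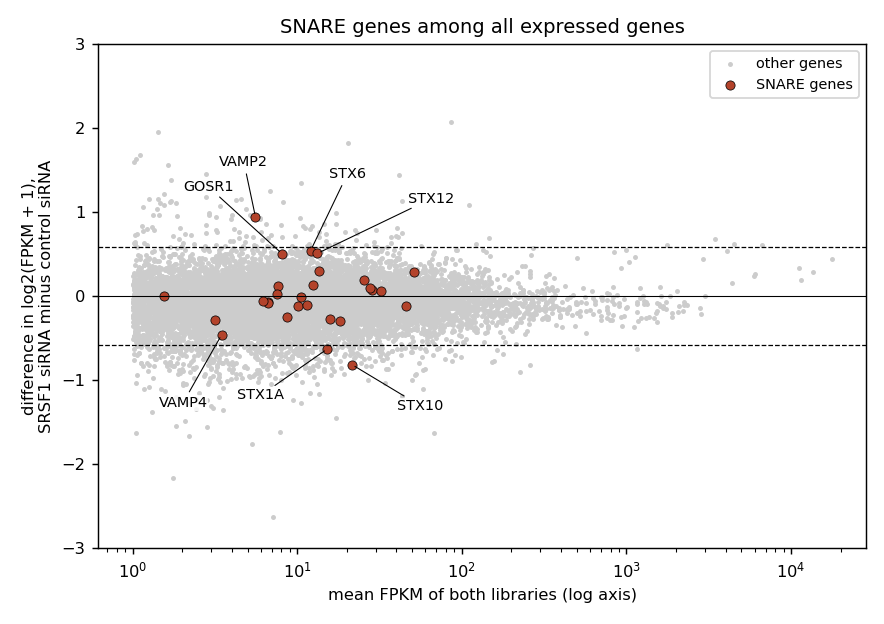
Difference between the libraries in log2(FPKM + 1), positive where the SRSF1 siRNA library is higher, plotted against the mean FPKM of both libraries (log axis) for all 11274 genes with a mean of at least 1 FPKM, each point a gene. The dashed lines mark 1.5-fold: VAMP2 lies above the upper line, STX10 and STX1A lie below the lower line, and the other 25 SNARE genes lie between them.

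At the plasma membrane, SNAP23, the widely expressed Qbc-SNARE of exocytosis outside neurons, had the highest level of all members with SRSF1 siRNA, at 56.4 FPKM, against 46.2 FPKM with control siRNA. Its ratio was 1.22, with a 95% counting interval of 1.16 to 1.28. The counting intervals are exact intervals of the ratio between the libraries and cover counting error only, not the spread between cultures. The values of SNAP23 carry a limit of annotation, since 27.4% of its exonic bases overlap exons on the opposite strand. Whether strand was used in counting is not known, and the effect on its level and ratio was not tested. SNAP25, the neuronal relative of SNAP23, was at 0.0184 FPKM with SRSF1 siRNA and was listed at 0 with control siRNA. Among the vesicle R-SNAREs of this step, VAMP3, the cellubrevin of recycling vesicles, led in both libraries, at 27.2 FPKM with SRSF1 siRNA and 23.6 FPKM with control siRNA, a ratio of 1.15 (1.07 to 1.24).

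VAMP2, synaptobrevin 2, is the R-SNARE of regulated exocytosis in neurons and secretory cells. It was at 7.64 FPKM with SRSF1 siRNA, against 3.50 FPKM with control siRNA, from 452 fragments with SRSF1 siRNA and 201 with control siRNA. This was the largest difference among the members, at 0.94 in log2(FPKM + 1), with an FPKM ratio of 2.18 (1.84 to 2.59). Despite this rise VAMP2 stayed well below VAMP3 in both libraries: it made up 21.9% of the summed FPKM of the pair with SRSF1 siRNA and 12.9% with control siRNA. VAMP1, synaptobrevin 1, whose window above is the nearest to that of VAMP2, was at 1.55 FPKM with SRSF1 siRNA and 1.54 FPKM with control siRNA (ratio interval 0.768 to 1.31). The values of VAMP2 carry a limit of annotation, since 13.2% of its exonic bases in GENCODE 29 overlap those of AC129492.3, a protein-coding gene transcribed in the same direction. No exon of another gene overlaps VAMP3.

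The plasma membrane syntaxins, the Qa-SNAREs of exocytosis, did not move together. STX1A, best known from synaptic vesicle fusion, fell to 11.8 FPKM with SRSF1 siRNA, against 18.7 FPKM with control siRNA, a difference of -0.63 and a ratio of 0.628 (0.543 to 0.726). This call rests on the scaling: the difference was -0.57 after removal of the trend with transcript length, -0.56 after quantile normalization and -0.57 with the median of all genes set to 0, an alternative chosen after seeing the data, each short of the rule. STX3, which acts at the apical surface of epithelial cells, was at 15.1 FPKM with SRSF1 siRNA and 12.1 FPKM with control siRNA, a ratio of 1.25 (1.17 to 1.33) that stays short of the 1.5-fold rule. In deposited FPKM the order of the pair differed: STX3 was at 1.28 times STX1A with SRSF1 siRNA and 0.645 times with control siRNA. This order depends on the gene lengths behind the values. For STX3 the smallest length that fits was 6475 bases, against 3299 bases for its longest GENCODE 29 transcript. With a shorter length its FPKM would be higher in both libraries, so the order of the transcripts themselves is not settled. STX4, a partner of SNAP23, had the highest FPKM of these syntaxins, at 29.1 FPKM with SRSF1 siRNA and 27.7 FPKM with control siRNA, and its ratio interval held 1 (0.904 to 1.22). STX2 was the nearest to no difference, at 10.5 FPKM with SRSF1 siRNA and 10.6 FPKM with control siRNA. On the opposite strand, BUD23, listed in the table under its older symbol WBSCR22, overlaps 17.9% of the exonic bases of STX1A, and it was at 35.2 FPKM with SRSF1 siRNA and 37.8 FPKM with control siRNA. The sources used here do not say whether strand was used in counting.

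**Figure D2:**
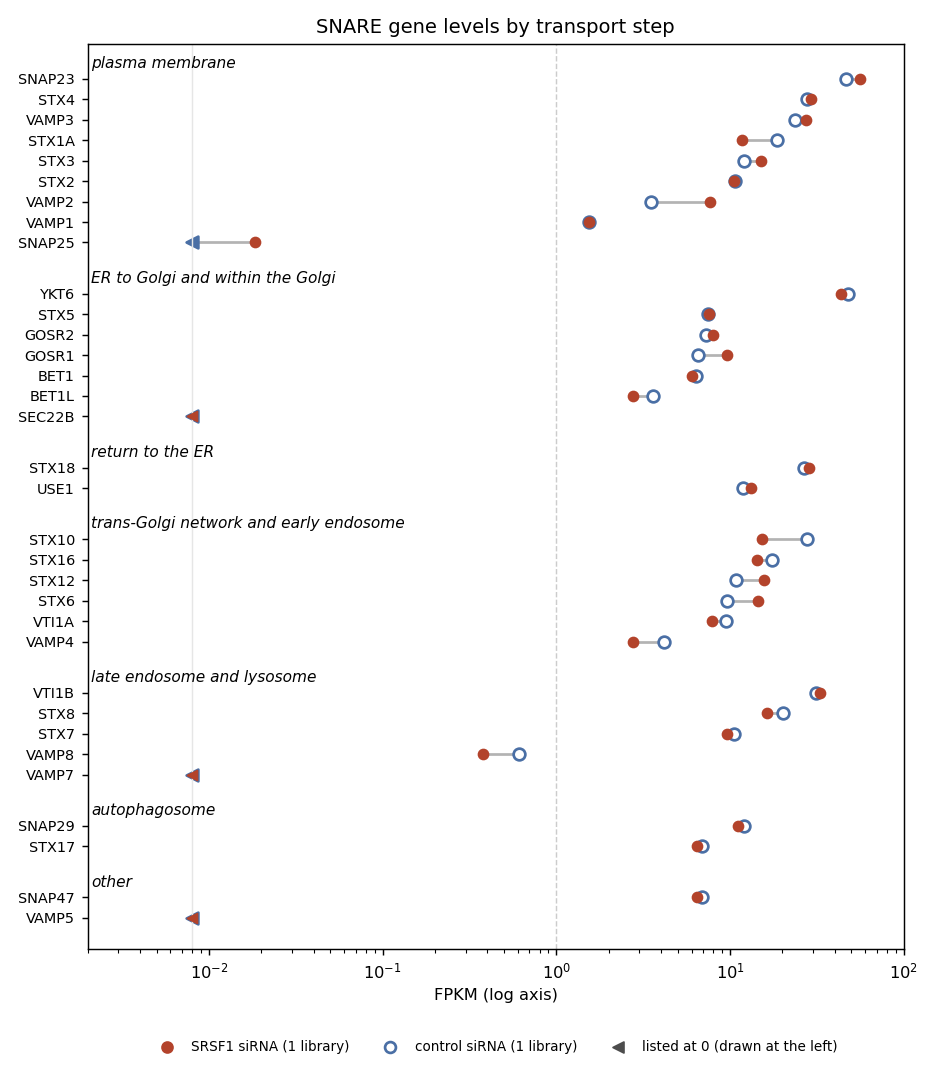
FPKM (log axis) of the 33 SNARE genes with SRSF1 siRNA (filled) and control siRNA (open), 1 library each, grouped by the transport step in which the genes mainly act and ordered by control level within a step. The dashed line marks 1 FPKM, triangles at the left stand for genes listed at 0, and the widest gaps among genes above 1 FPKM are those of VAMP2, STX10 and STX1A.

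Among the SNAREs that return cargo from endosomes to the trans-Golgi network, 2 genes that can take the same place in a bundle lay on opposite sides. STX10 and STX6 are related Qc-SNAREs that each assemble with STX16 and VTI1A; STX10 has been linked to the retrieval of mannose 6-phosphate receptors. STX10 fell to 15.3 FPKM with SRSF1 siRNA, against 27.6 FPKM with control siRNA, from 507 fragments with SRSF1 siRNA and 890 with control siRNA. This difference of -0.82, a ratio of 0.553 (0.495 to 0.617), was the lowest of all expressed members. STX6 was at 14.4 FPKM with SRSF1 siRNA, against 9.62 FPKM with control siRNA, from 1563 fragments with SRSF1 siRNA and 1010 with control siRNA. Its ratio was 1.5 (1.39 to 1.63), and its difference of 0.54 in log2(FPKM + 1) lay just short of the rule, which asks for 0.58.

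With SRSF1 siRNA the levels of the pair were close, and the counting interval of STX6 (13.7 to 15.2 FPKM) overlapped that of STX10 (14.0 to 16.6 FPKM). With control siRNA they were apart, at 9.04 to 10.2 FPKM for STX6 and 25.8 to 29.5 FPKM for STX10. STX6 thus made up 48.6% of the FPKM of the pair with SRSF1 siRNA, against 25.8% with control siRNA. The summed FPKM of the pair was 29.7 with SRSF1 siRNA and 37.2 with control siRNA. In GENCODE 29 no exon of another gene overlaps STX10, and 5.6% of the exonic bases of STX6 overlap AL162431.2 on the same strand. Of the 11 annotated STX10 transcripts 2 are of the type degraded by nonsense-mediated decay, and of the 4 STX6 transcripts 0 are. For STX1A, which also fell, it is 0 of 14, and for STX5, with a ratio of 1.02, it is 4 of 8. A link between this type and the differences was not tested. The deposited values are sums over a gene and do not say which transcripts were present.

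**Figure D3:**
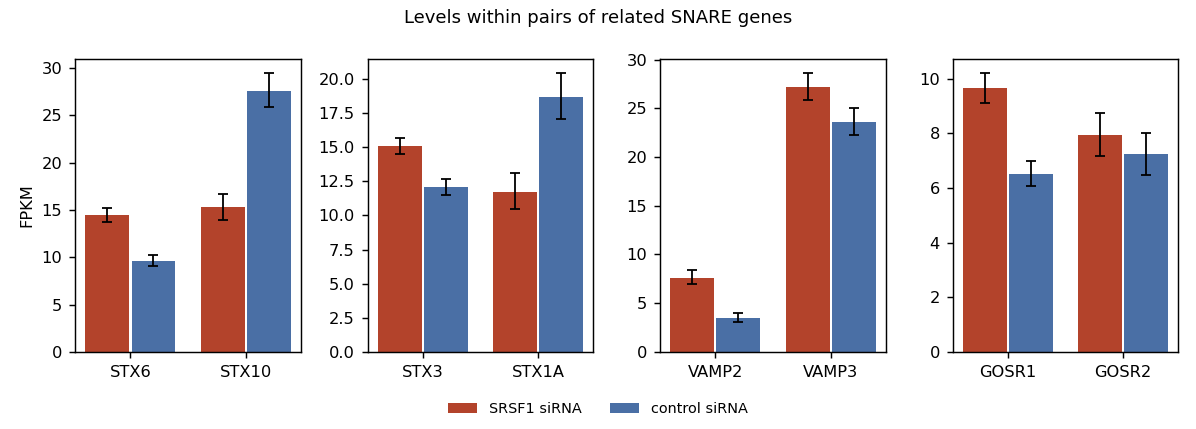
FPKM of 4 pairs of related SNARE genes with SRSF1 siRNA (left bar of each gene) and control siRNA (right bar), 1 library each; error bars are exact 95% Poisson intervals and cover counting error only. STX6 and STX10 are close with SRSF1 siRNA and apart with control siRNA. STX3 and STX1A change order in FPKM, an order that depends on the gene length used. VAMP2 stays below VAMP3, and GOSR1 lies above GOSR2 only with SRSF1 siRNA.

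The common partners of STX6 and STX10 were both slightly lower than in the control library. STX16, the Qa-SNARE of these bundles, was at 14.3 FPKM with SRSF1 siRNA and 17.4 FPKM with control siRNA (ratio interval 0.769 to 0.876), and the Qb-SNARE VTI1A was at 7.85 FPKM with SRSF1 siRNA and 9.50 FPKM with control siRNA (0.752 to 0.908). For STX16, 28.4% of the exonic bases are shared with the read-through gene STX16-NPEPL1 on the same strand, which was itself at 4.30 FPKM with SRSF1 siRNA and 5.21 FPKM with control siRNA. VAMP4, an R-SNARE of the trans-Golgi network, was at 2.77 FPKM with SRSF1 siRNA and 4.18 FPKM with control siRNA. Its FPKM ratio of 0.662 (0.575 to 0.762) exceeds 1.5-fold, but at this low level its difference in log2(FPKM + 1), -0.46, does not. STX12, also called syntaxin 13 and found on recycling endosomes, lay on the other side, at 15.7 FPKM with SRSF1 siRNA and 10.8 FPKM with control siRNA, with a difference of 0.51 and a ratio of 1.46 (1.33 to 1.60). Of the 6 genes of this step 2 lay above 0 and 4 below, where 39.7% of all genes lay above 0. The median difference of the step was -0.26.

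Between the ER and the Golgi, the levels of most SNAREs were close in both libraries and no member passed the rule. GOSR1, a Golgi Qb-SNARE also called GS28, stood apart, at 9.66 FPKM with SRSF1 siRNA, against 6.53 FPKM with control siRNA, a difference of 0.50 and a ratio of 1.48 (1.35 to 1.62). GOSR2, or membrin, the other Qb-SNARE of this route, was at 7.93 FPKM with SRSF1 siRNA and 7.23 FPKM with control siRNA, with an interval that held 1 (0.948 to 1.27). GOSR1 was therefore the higher of the pair with SRSF1 siRNA and the lower with control siRNA, although with control siRNA the counting intervals of the pair overlapped (6.08 to 7.0 and 6.49 to 8.03 FPKM).

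YKT6, an R-SNARE attached to membranes by lipid anchors, was the most abundant member with control siRNA, at 47.5 FPKM, and was at 43.7 FPKM with SRSF1 siRNA (ratio interval 0.874 to 0.968). STX5, the Qa-SNARE of the Golgi, was at 7.61 FPKM with SRSF1 siRNA and 7.48 FPKM with control siRNA. The Qc-SNARE BET1 was at 6.06 FPKM with SRSF1 siRNA and 6.36 FPKM with control siRNA. Its relative BET1L, or GS15, was at 2.77 FPKM with SRSF1 siRNA and 3.60 FPKM with control siRNA, a ratio of 0.769 (0.634 to 0.932). For BET1L, 14.8% of the exonic bases overlap a gene on the opposite strand. For the return of material to the ER, the Qa-SNARE STX18 was at 28.4 FPKM with SRSF1 siRNA and 26.5 FPKM with control siRNA, and the Qc-SNARE USE1 at 13.1 FPKM with SRSF1 siRNA and 11.9 FPKM with control siRNA. The intervals of STX5, BET1, STX18 and USE1 all held 1 with the smallest counts that fit; with counts at the whole multiple nearest the longest annotated transcript, chosen after seeing the data, that of STX18 was 1.01 to 1.14 and those of the other 3 still held 1.

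In the late endosome and lysosome, where STX7, VTI1B and STX8 form a bundle with VAMP8 or VAMP7, no member passed the rule. VTI1B was the most abundant, at 32.9 FPKM with SRSF1 siRNA and 31.4 FPKM with control siRNA, a ratio of 1.05. Of its exonic bases, 15.6% overlap exons on the opposite strand and 5.6% exons on the same strand. STX8, the Qc-SNARE of the bundle, was at 16.3 FPKM with SRSF1 siRNA and 20.3 FPKM with control siRNA, a ratio of 0.803 (0.659 to 0.979). STX7, its Qa-SNARE, was at 9.61 FPKM with SRSF1 siRNA and 10.6 FPKM with control siRNA (0.834 to 0.994). The R-SNARE VAMP8 was below the level compared, at 0.378 FPKM with SRSF1 siRNA and 0.613 FPKM with control siRNA from only 7 fragments with SRSF1 siRNA and 11 with control siRNA, and its ratio interval ran from 0.203 to 1.74. In autophagosome fusion, STX17 was at 6.44 FPKM with SRSF1 siRNA and 6.91 FPKM with control siRNA, and its Qbc partner SNAP29 at 11.0 FPKM with SRSF1 siRNA and 12.0 FPKM with control siRNA. SNAP47, a further Qbc-SNARE, was at 6.48 FPKM with SRSF1 siRNA and 6.86 FPKM with control siRNA, and 35.3% of its exonic bases overlap JMJD4 on the opposite strand.

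**Figure D4:**
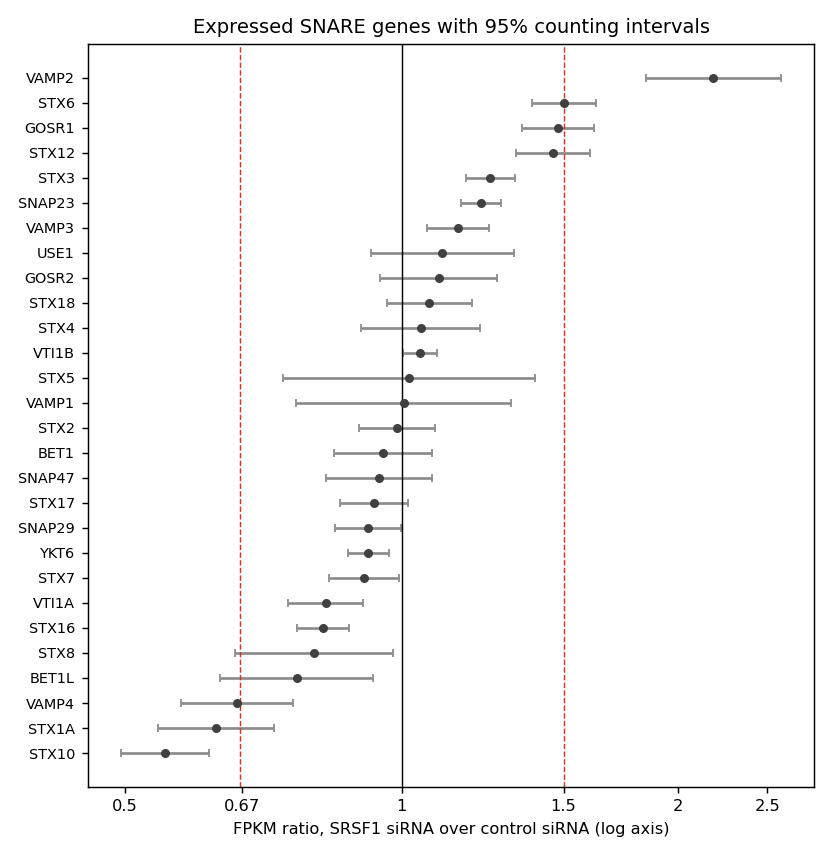
FPKM ratio, SRSF1 siRNA over control siRNA (log axis), of the 28 SNARE genes with a mean of at least 1 FPKM, in order of the ratio; bars are exact 95% counting intervals from the smallest whole fragment counts that give the deposited values. The dashed lines mark a plain ratio of 1.5-fold: VAMP2 and STX6 reach the upper line, and STX10, STX1A and VAMP4 lie beyond the lower line, whereas on the log2(FPKM + 1) scale STX6 and VAMP4 do not pass.

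The counting interval lay above 1 for 8 of the 28 members, below 1 for 10 and held 1 for the other 10. With counts at the multiple nearest the longest transcript these numbers were 9, 10 and 9. The share over all genes was not computed, so these counts do not set the members apart from other genes. By class, the median difference was 0.00 for the 5 expressed R-SNAREs and 0.00 for the 10 Qa-SNAREs, 0.09 for the 4 Qb-SNAREs, -0.17 for the 6 Qc-SNAREs and -0.07 for the 3 Qbc-SNAREs. The Qc class held both STX10 and STX6 and had the lowest summed level relative to control, at 67.9 FPKM with SRSF1 siRNA and 79.3 FPKM with control siRNA. STX10 alone was at 15.3 FPKM with SRSF1 siRNA and 27.6 FPKM with control siRNA, a larger fall than that of the class sum. The highest relative sum was that of the Qbc class, 73.9 FPKM with SRSF1 siRNA and 65.1 FPKM with control siRNA, of which most was SNAP23.

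VAMP5, VAMP7 and SEC22B were listed at 0 in both libraries. VAMP5 is known from muscle, but SEC22B, an R-SNARE of the route between ER and Golgi, and VAMP7, an R-SNARE of late endosomes and lysosomes, are expressed in most cell types. VAMP7 is annotated in GENCODE 29 on both X and Y, and of the 18 mRNA rows of the table that are annotated on both chromosomes, 17 were listed at 0 in both libraries, against 32.7% of all 19784 mRNA rows. Its 0 is therefore a listed value and gives no level. No such check was made for SEC22B.

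The genes that act on SNAREs were described from 5 lists with 60 entries, of which 59 were in the table and 27 had a mean of at least 1 FPKM. None of the 27 rose or fell by the 1.5-fold rule, by which 1.22% of all genes rose and 4.30% fell. With a pseudocount of 0.1 or in plain ratios of counts, DOC2B passed upward and CPLX1 and DOC2A downward. The median difference of the 27 was -0.05, with 13 above 0 and 14 below, where 39.7% of all genes lay above 0. The 8 SM proteins had a median difference of -0.12. STXBP3 or Munc18c, the SM protein of STX4 and named here after its values were seen, was at 21.2 FPKM with SRSF1 siRNA and 15.5 FPKM with control siRNA (1.26 to 1.49). SCFD2 had the lowest difference of this list, -0.31, at 4.65 FPKM with SRSF1 siRNA and 5.99 FPKM with control siRNA.

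Of the 4 genes of SNARE disassembly (median 0.22), NAPA, which encodes alpha-SNAP, had the highest difference (0.44), at 17.4 FPKM with SRSF1 siRNA and 12.6 FPKM with control siRNA, a ratio of 1.38 (1.24 to 1.55). Its relative NAPB, or beta-SNAP, had the lowest difference (-0.28), at 6.13 FPKM with SRSF1 siRNA and 7.65 FPKM with control siRNA (0.716 to 0.897). NSF and NAPG, which were picked for the text with their values known, were at 15.9 and 9.63 FPKM with SRSF1 siRNA and at 15.3 and 7.19 FPKM with control siRNA. Of 3 expressed SNARE-family genes outside the members, BNIP1, which acts with STX18 and USE1, was at 8.47 FPKM with SRSF1 siRNA and 7.92 FPKM with control siRNA, and SEC22C at 6.18 FPKM with SRSF1 siRNA and 8.31 FPKM with control siRNA. Of 7 expressed regulators, UNC13B, a priming factor of exocytosis, had the highest difference (0.33), at 10.1 FPKM with SRSF1 siRNA and 7.80 FPKM with control siRNA, and CPLX1, a complexin that binds assembled SNARE bundles, had the lowest (-0.57), at 1.77 FPKM with SRSF1 siRNA and 3.11 FPKM with control siRNA. In the list of synaptotagmins and relatives, no SYT gene reached a mean of 1 FPKM, and the 5 expressed genes were SYTL4, ESYT1, ESYT2, DOC2A and DOC2B. Among these 5, the calcium-binding genes DOC2B and DOC2A had the highest and the lowest difference. DOC2B and DOC2A were at 1.59 and 0.791 FPKM with SRSF1 siRNA, against 0.917 and 1.57 FPKM with control siRNA. Each of these 2 was below 1 FPKM in 1 library and met the minimum only through the library where it was higher, so their values are given as a description. The reference genes were not all level: ACTB was at 1.43 times its control value, GAPDH at 0.914 times and TBP at 1.02 times.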

How the data were processed

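The sources were FPKM values and mapping summaries of 1 library per group, grouped by the sample labels. The authors deposited 1 FPKM value per gene and library; per the submitters' processing notes, Bowtie 0.12.2 and build hg19 were used. No source used here names the counting tool, annotation, strand setting or filters. The mapping summaries, per the file headers, gave read numbers and rates; these are other values than FPKM and served only for depth.

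Differences were taken in log2(FPKM + 1), with a mean of at least 1 FPKM required; this scale understates changes of low genes. Whole fragment counts were recovered because FPKM is a count divided by length and library total: totals of 23852089 (SRSF1 siRNA) and 23138519 (control siRNA) gave whole counts and lengths, within a relative tolerance of 2e-12, for 99.9% of 16235 genes above 0 in both libraries. The smallest counts that fit were used, so some intervals are too wide. Ratio intervals are exact Clopper-Pearson 95% intervals conditional on the sum; PCR copies are counted in them as if they were separate molecules. Steps were tested on simulated data with known totals and changes. Annotation was GENCODE 29 on GRCh38, which is not the authors' build, and gave places, overlaps, coding windows and transcript lengths. The members, lists and limits were chosen with earlier results of these data known. Named in full were members past 1.5-fold and those with the 5 largest rises and falls, and from each list of other genes the largest rise and fall, except that 1 gene is not reported here. Alternatives changed the pseudocount, filter, scaling and length trend (lowess). Python 3.11.15, scipy 1.17.1 and statsmodels 0.14.6 were used.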

Additional observations from a re-analysis of the deposited data

How the results depend on the processing

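VAMP2 stayed at least 1.5-fold higher and STX10 at least 1.5-fold lower under all 8 alternatives. Those that changed only the filter left both differences as they were, so they add no check on them. VAMP2, at 3.50 FPKM with control siRNA, met a mean of at least 5 FPKM only through the SRSF1 siRNA library (7.64 FPKM). STX1A did not pass after quantile normalization, after removal of the length trend or with the median of all genes set to 0 (chosen after seeing the data), which left 1 member lower; the cause was not tested. STX6 passed, for 2 members higher, after quantile normalization, with the median of all genes set to 0 and in plain ratios of whole counts, where VAMP4 also passed downward. Over all 11274 genes, 138 rose and 485 fell as deposited. After quantile normalization 214 rose and 327 fell, and 197 and 355 did with the median set to 0. With a pseudocount of 0.1 these numbers were 237 and 806. The other alternatives cover other sets of genes. With the length trend removed, 126 of 10767 genes rose and 360 fell. In plain ratios 256 of 11253 rose and 860 fell, and with no filter on low values 247 of 18648 rose and 594 fell. Quantile normalization moved the median difference of all genes to 0.01, against -0.06 as deposited. For 24 of 28 members signs stayed the same under every alternative in which the member was kept. A changed pseudocount, a changed filter or the plain ratio cannot change a sign, so only the changes of scaling and length trend bear on this. STX2, SNAP47 and BET1 changed sign after quantile normalization, and VAMP1 with columns rescaled to the same sum. STX2 also did with the median of all genes set to 0. Of the genes that act on SNAREs, DOC2B passed upward (1) and CPLX1 and DOC2A downward (2) with a pseudocount of 0.1 and in plain ratios, and CADPS2 downward (1) with no filter on low values. SRSF1 was at -1.57 both after quantile normalization and with the median of all genes set to 0, against -1.63. No paired analysis was possible because each group had 1 library. With 1 library per group only counting error could be measured, and genes with few fragments, such as VAMP8, are limited by it.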
